A study of Mus musculus with 6 samples.

Results

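The 5 genes *Frmd8*, *Rhbdf1*, *Rhbdf2*, *Adam17* and *Adam10*, which encode the iRhom-ADAM17 shedding complex and a related protease, were taken by symbol from the 16640 genes of the count tables. They were chosen by their measured differences between conditions and between replicates in these same libraries, so their values are given as a description, with no test. All 5 passed the filter on low counts, as did 12516 genes in all. MIN6 cells come from a mouse insulinoma of pancreatic β-cells, and RNA from *Thada*-activated and control cells was sequenced in 3 libraries per condition, 6 in all. The activated cells are a stable line that received a lentivirus with dCas9-VP64 and then one with an sgRNA for the *Thada* promoter and MS2-P65-HSF1, with selection by puromycin and G418. In this system (dCas9-SAM) activators are brought to a promoter without cutting the DNA. In the controls the same kind of vectors carried dCas9 and an sgRNA that is non-targeting. How many lines were made per condition is not stated, and an effect of *Thada* cannot be told apart from other differences between the lines.

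Many membrane proteins are released from the cell surface by sheddases, proteases that cut them close to the membrane. ADAM17 (TACE) sheds TNF and several ligands of the EGF receptor. It leaves the endoplasmic reticulum only with an iRhom, a rhomboid-like protein without protease activity, encoded by *Rhbdf1* (iRhom1) or *Rhbdf2* (iRhom2). FRMD8, also called iTAP, is a FERM-domain protein that binds the cytoplasmic tail of the iRhoms and keeps the complex with ADAM17 from being degraded in lysosomes. ADAM10 is a separate sheddase, the main one for Notch, and is escorted by tetraspanins of the TspanC8 group.

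Libraries are numbered by replicate. The totals were 17272834, 17166511 and 17689611 counts for control and 17727004, 17385036 and 17224631 for activated cells. Values within a gene use CPM, in which counts are divided by TMM-normalized library sizes, and levels of different genes are compared in FPKM, which also divides by gene length. A level of 3 counts, taken as the floor, was between 0.169 and 0.176 CPM. *Thada* itself was at 28.1, 28.9 and 17.2 CPM in control and at 57.3, 56.2 and 49.1 CPM in activated libraries 1, 2 and 3, so the labels of the conditions held in each library. In both conditions replicate 3 stands apart from replicates 1 and 2 over all genes, so values are given for each replicate number. The origin of the replicates (separate cultures or not) is not given in the labels, and p-values therefore measure only the spread between these libraries. The paper's reporting summary gives 3 or more independent experiments for all work in vitro, without naming the RNA libraries.

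*Frmd8*, the stabilizer of the complex, was at 14.1, 14.3 and 12.4 CPM in control libraries 1, 2 and 3 and at 25.9, 25.2 and 20.8 CPM in activated libraries 1, 2 and 3. The lowest activated library was above the highest control library, and in both conditions replicate 3 was the lowest. The means were 13.6 ± 1.01 and 24.0 ± 2.80 CPM (SD, n = 3), a fold of 1.76. Within replicate numbers 1, 2 and 3 the activated library was 1.83, 1.77 and 1.67 times the control library. The fitted log2 difference was 0.82 (standard error 0.14), and leaving out single libraries moved it between 0.76 and 0.91. *Frmd8* was the 1 member of the 5 whose conditions did not overlap. Of all tested genes, 5.40% did not overlap between conditions and 2.70% had every activated library above every control library. Since *Frmd8* was chosen with this difference known, nothing is read from that count.

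**Figure D1:**
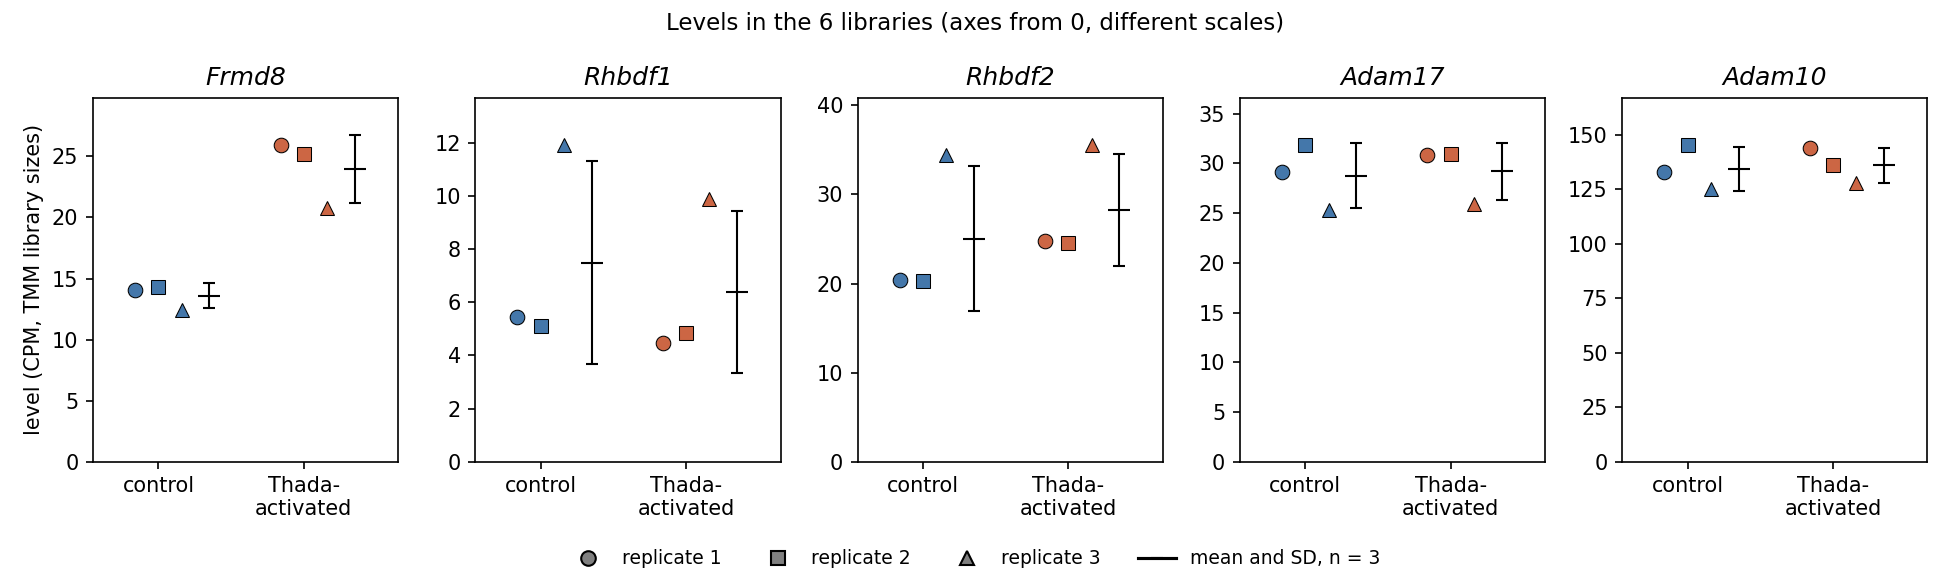
Level of each of the 5 genes in the 6 libraries, in CPM on axes that start at 0 and differ between genes. Each point is a library (circle, square and triangle for replicates 1, 2 and 3), and the bar beside each group is the mean with the SD of 3 libraries. *Frmd8* was at 20.8 CPM or more in activated and at 14.3 CPM or less in control libraries, while for *Rhbdf1* and *Rhbdf2* the replicate 3 libraries stand above the others in both conditions.

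Counts behind *Frmd8* ran from 217 to 460 per library. The gene lies on the minus strand of chromosome 19 (GRCm38) from 5849702 to 5875274 in GENCODE M21, with 4 transcripts, 2 of them protein-coding, and 11 exons in the one with the longest coding sequence. In the authors' table *Frmd8* reaches from 5845623 to 5875273 and holds 9 transcripts, so this interval extends 4079 bp past the annotated 3′ end. Its first base is also the first base of the antisense RNA gene *Frmd8os*, which GENCODE places on the plus strand from 5845623 to 5851388. *Frmd8os* has no row of its own in the tables used here, and whether strand was used in counting is not stated, so reads of *Frmd8* and *Frmd8os* cannot be told apart. The interval ends 145 bp short of the noncoding RNA gene *Neat1* (5824708 to 5845478), which is not in the tables used here either.

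**Figure D2:**
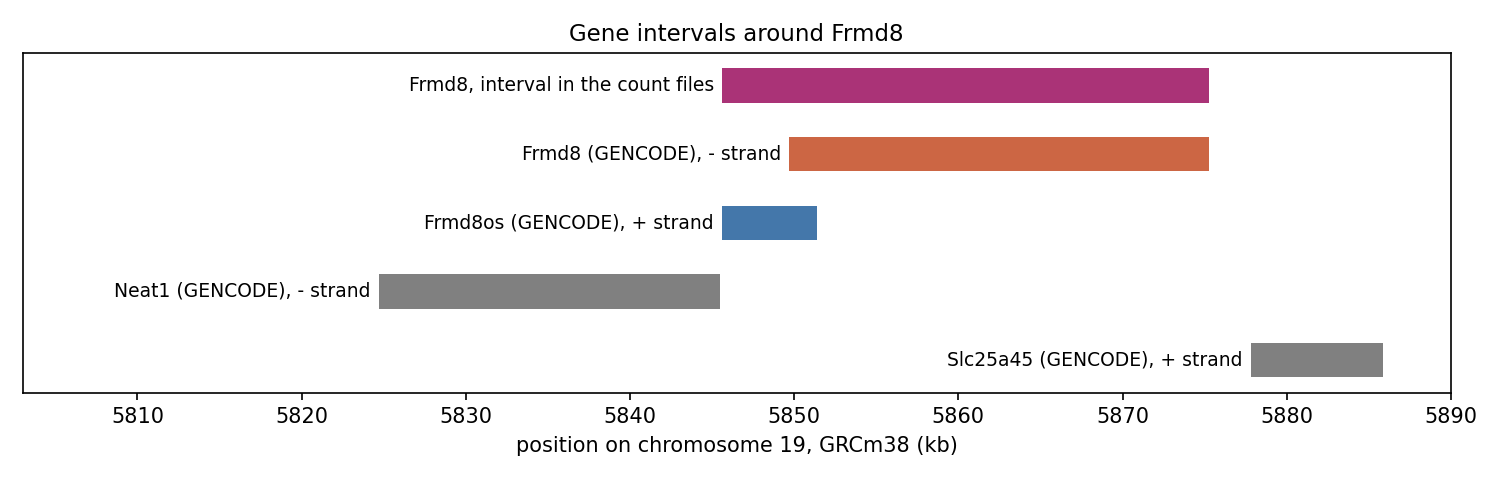
Gene intervals on chromosome 19 around *Frmd8*, with the position in kb (GRCm38) on the horizontal axis and 1 bar per interval. The interval of the authors' table starts with *Frmd8os*, at 5845623, and not with the GENCODE gene *Frmd8*, at 5849702.

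The genes listed within 100 kb all lie upstream of *Frmd8*, and no test compared their differences with that of *Frmd8*. *Slc25a45*, a mitochondrial carrier gene transcribed away from *Frmd8* with a start 2.5 kb from it, had 0, 0 and 0 counts in control and 3, 7 and 1 counts in activated libraries 1, 2 and 3, too few to be tested. *Tigd3*, *Dpf2*, *Cdc42ep2* and *Pola2*, with starts between 18.9 and 88.9 kb away, had log2 differences between -0.04 and 0.37 (standard errors from 0.14 to 0.41), and the conditions overlapped for each of the 4. *Dpf2*, a subunit of the BAF chromatin remodelling complex, was at 89.4, 86.5 and 116 CPM in control and 91.1, 95.9 and 97.1 CPM in activated cells.

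*Rhbdf1*, which encodes iRhom1, was at 5.45, 5.12 and 11.9 CPM in control libraries 1, 2 and 3 and at 4.45, 4.83 and 9.90 CPM in activated libraries 1, 2 and 3. Replicate 3 was the high library in both conditions, and the conditions overlapped. It was 2.26 times the mean of replicates 1 and 2 in control and 2.13 times in activated cells. The fitted log2 difference of replicate 3 from replicates 1 and 2 was 1.13 (standard error 0.12). Within each replicate number the activated library was the lower one, at 0.82, 0.94 and 0.83 times control, with a fitted log2 difference of -0.23 (standard error 0.47) between conditions. This value was 0.27 without control replicate 3 and -0.69 without *Thada*-activated replicate 3, fits in which replicate 3 stands in 1 condition only. With the replicate number as a block (paired libraries) it was -0.22 (standard error 0.13). Only 79 to 208 counts per library stood behind *Rhbdf1*, the fewest of the 5 genes.

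*Rhbdf2*, which encodes iRhom2, was at 20.4, 20.3 and 34.4 CPM in control and at 24.8, 24.5 and 35.5 CPM in activated libraries 1, 2 and 3. Again both replicate 3 libraries were above all others. Replicate 3 was 1.69 times the mean of replicates 1 and 2 in control and 1.44 times in activated cells, and the fitted log2 difference was 0.64 (standard error 0.08), between 0.53 and 0.76 with single libraries left out. In replicates 1 and 2 the activated library was 1.21 times control in each, and in replicate 3 the ratio was 1.03. The conditions overlapped, and their log2 difference of 0.18 had a standard error of 0.27. It was 0.48 without control replicate 3, -0.02 without *Thada*-activated replicate 3, and 0.19 (standard error 0.08) with all libraries in the paired fit.

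*Adam17*, the protease of the complex, was at 29.1, 31.8 and 25.3 CPM in control and at 30.8, 30.9 and 25.9 CPM in activated libraries 1, 2 and 3. Its conditions overlapped, and within the replicate numbers the activated library was 1.06, 0.97 and 1.03 times control. The log2 difference between conditions was 0.02 (standard error 0.14). Here the replicate 3 libraries were the low ones, with a log2 difference of -0.26 (standard error 0.08) from replicates 1 and 2, the opposite direction to both iRhom genes. The last bases of *Adam17* overlap those of *Iah1*, which runs on the other strand and ends at 21323819, while *Adam17* reaches down to 21323509 on chromosome 12.

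*Adam10*, the sheddase outside the iRhom complex, was at 133, 145 and 125 CPM in control and at 144, 136 and 128 CPM in activated libraries 1, 2 and 3. The conditions overlapped, with a log2 difference of 0.02 (standard error 0.11). Replicate 3 was the lowest library of each condition, by a log2 difference of -0.14 (standard error 0.06). The difference between the highest and the lowest library was smaller, as a ratio, than for any other member.

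By edgeR's quasi-likelihood test with the condition as the only term, 0 of 12516 genes (0.00%) were called at an adjusted p under 0.05 and a fold over 1.5, with 101 genes at an unadjusted p under 0.05, while DESeq2 called 5 genes. With the replicate number as a block (paired libraries), 19 genes (0.152%) were called, 13 of them (0.104%) higher in activated cells. These shares are given as background, and no call is given for the members, which were chosen from these differences. Estimated with the block, the log2 difference of *Frmd8* was 0.81 (standard error 0.09). Between replicate 3 and replicates 1 and 2, 31.1% of all genes were called, 15.7% higher and 15.4% lower in replicate 3.

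Per length, the order of the levels was the same at its top in every library. *Adam10* had a mean of 29.9 ± 2.50 FPKM in control and 30.7 ± 1.62 FPKM in activated cells (SD, n = 3), and was between 4.24 and 4.78 times *Adam17* in FPKM. In control cells *Rhbdf2* followed at 7.27 ± 2.24 FPKM, *Adam17* at 6.65 ± 0.811, *Frmd8* at 4.72 ± 0.376 and *Rhbdf1* at 2.69 ± 1.36 FPKM. *Rhbdf2* and *Adam17* did not differ beyond their spread, and their order turned by replicate, with *Adam17* above *Rhbdf2* in control replicates 1 (6.70 and 5.93 FPKM) and 2 (7.43 and 6.02 FPKM) and below it in control replicate 3 (5.81 and 9.85 FPKM). In control replicate 3 *Frmd8* (4.30 FPKM) and *Rhbdf1* (4.26 FPKM) were almost level. In activated cells *Frmd8* was at 8.32 ± 0.980 FPKM, next to *Rhbdf2* at 8.29 ± 1.88 and *Adam17* at 6.84 ± 0.612 FPKM. *Rhbdf2* did not differ from either beyond its spread, while *Frmd8* was above *Adam17* within each activated library and their ranges met at 7.19 FPKM. *Rhbdf1* was again the lowest, at 2.35 ± 1.12 FPKM. The place of *Frmd8* in this order depends on the length of the authors' gene model, which includes the *Frmd8os* interval.

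*Rhbdf2* was the more abundant iRhom gene in every library. In FPKM it was 3.07, 3.22 and 2.31 times *Rhbdf1* in control libraries 1, 2 and 3 and 4.48, 4.01 and 2.87 times in activated replicates. The sum of both iRhom genes was 7.86, 7.89 and 14.1 FPKM in control and 8.94, 8.87 and 14.1 FPKM in activated libraries 1, 2 and 3. It was thus almost equal in the pair of replicate 3 libraries, and higher there than in replicates 1 and 2. Relative to that sum, *Frmd8* was at 0.617, 0.636 and 0.305 in control and at 1.00, 0.995 and 0.510 in activated replicates, in FPKM per FPKM. The ratio was higher in the activated library of each number, but activated replicate 3 lay below control replicates 1 and 2, so the conditions overlapped. *Adam17* relative to the same sum was between 0.804 and 0.942 in replicates 1 and 2, and at 0.412 and 0.435 in the control and activated replicate 3 libraries.

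The shape of the *Frmd8* values over the 6 libraries was compared with that of 12076 other tested genes of at least 1 CPM, by the root-mean-square difference of centred log2 levels. The 5 closest genes were *Arhgap36* (0.098), *Ssc5d* (0.108), *Serpina1d* (0.120), *Srl* (0.128) and *Tgfa* (0.131), where the median over all genes was 0.470. *Frmd8* was chosen by these same values, so genes with a similar difference between conditions come first by construction. Shared regulation was not tested. *Arhgap36* was at 6.38, 7.62 and 5.39 CPM in control and 12.5, 12.3 and 10.5 CPM in activated libraries 1, 2 and 3. *Serpina1d* is 1 of several near-identical α1-antitrypsin genes, between which reads can be split, so its value is uncertain. Of the other members, *Adam17* (0.394, rank 1649) and *Adam10* (0.399, rank 1851) were closer to *Frmd8* than the median gene, and *Rhbdf2* (0.517) and *Rhbdf1* (0.822) were further away. The measure includes the difference of replicate 3 from the other libraries. Between conditions *Adam17* and *Adam10* each had a log2 difference of 0.02, so they did not share the difference of *Frmd8*.

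Most ligands of the EGF receptor are shed by ADAM17, and EGF and betacellulin mainly by ADAM10. Of these ligands 7 were listed, of which 6 were in the tables and 3, *Hbegf*, *Tgfa* and *Egf*, were tested. Between conditions 0 of the 3 were called by edgeR's test (0.00% of all genes), and 0 by DESeq2, which called 5 genes in all. An unadjusted p under 0.05 in edgeR's test was reached by 1 of the 3 (*Tgfa*, 33.3%), against 0.807% of all genes. *Tgfa*, which encodes TGF-α, a classical product of ADAM17, was at 3.28, 3.14 and 3.44 CPM in control and at 6.70, 6.21 and 4.38 CPM in activated libraries 1, 2 and 3. Every activated library was above every control library, but replicate 3 held a smaller difference than the others, with ratios of 2.04, 1.98 and 1.27. The log2 difference was 0.81 (standard error 0.23), with an adjusted p of 1 in edgeR's test and of 0.118 in the paired fit. Over 18 settings the log2 difference ranged from 0.40, by limma on log2(FPKM + 1), to 1.01, and the adjusted p from 4.2e-05 to 1, under 0.05 in 2 of them. These were the paired edgeR fit without both replicate 3 libraries (log2 difference 1.01), which called 0.561% of all genes, and the edgeR fit with replicate 3 as a term (0.80, adjusted p = 0.0433), which called 0.336%.

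*Hbegf*, which encodes heparin-binding EGF, was the most abundant ligand gene, with a mean of 24.4 FPKM over all libraries against 1.03 FPKM for *Tgfa* and 0.355 FPKM for *Egf*. It was at 53.4, 53.9 and 61.2 CPM in control and at 52.0, 53.0 and 51.7 CPM in activated libraries 1, 2 and 3. All control libraries were higher, although the gap between the closest libraries was under 1 CPM. The log2 difference was -0.10 (standard error 0.10). *Areg*, at too low a level to be tested, was at 0.469, 0.349 and 0.402 CPM in control libraries 1, 2 and 3. In activated libraries it was at 0.282, 0.230 and 0.284 CPM. A level of 1 count was between 0.0563 and 0.0586 CPM, so these values rest on few counts and no difference of *Areg* is read from them. *Ereg* and *Btc* were at or under the floor, and *Epgn* was not in the tables used here.

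Of the EGF receptor family, *Egfr* and *Erbb3* were tested, and *Erbb2* and *Erbb4* were at 0.407 CPM or less. *Egfr* was at 6.62, 5.47 and 13.7 CPM in control and at 7.66, 8.86 and 13.1 CPM in activated libraries 1, 2 and 3. *Erbb3* was at 0.937, 1.05 and 3.33 CPM in control and at 0.676, 0.518 and 3.70 CPM in activated cells. For both genes the replicate 3 libraries were the high ones, with log2 differences of 0.91 and 2.14 from replicates 1 and 2. Both were called higher in replicate 3, as were 15.7% of all genes, with 31.1% called in either direction. Their conditions overlapped.

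The pathway lists held 160 genes, of which 150 were in the tables and 120 were tested. Between conditions 0 of the 120 were called by edgeR's test, 3 (2.50%) were at an unadjusted p under 0.05, as were 0.807% of all genes, and DESeq2 called 0. With the replicate block the list genes called were also 0, and 15 (12.5%) were at an unadjusted p under 0.05, against 10.4% of all genes. The median log2 difference was 0.00 in the lists and 0.00 over all tested genes. Every activated library was above every control library for 5 of the 120 genes (4.17%, against 2.70% of all genes) and below for 3 (2.50%, against 2.70%).

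Named after their values were seen, the genes with activated libraries above control were *Tgfa*, *Csf1*, *Notch1*, *Tmem115* and *Epb41l4b*, and those below were *Hbegf*, *Frmd6* and *Snx27*. *Csf1*, the gene of the macrophage growth factor M-CSF, whose membrane form is cut by ADAM17, was at 25.2, 27.5 and 24.2 CPM in control and 31.0, 33.2 and 32.9 CPM in activated cells. *Notch1*, whose receptor is cut by ADAM10, was at 5.04, 5.41 and 4.65 CPM in control and 5.74, 8.28 and 8.36 CPM in activated cells. Their log2 differences were 0.34 (standard error 0.10) and 0.57 (standard error 0.21), each with an adjusted p of 1 in edgeR's test. With replicate 3 as a term the adjusted p was 0.0562 for *Csf1* and 0.140 for *Notch1*, and in the paired edgeR fit without replicate 3 it was 0.0449 (log2 difference 0.28, under the fold minimum) and 0.160.

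Between replicate 3 and replicates 1 and 2, 38 of the 120 list genes (31.7%, against 31.1% of all genes) were called by edgeR, 25 higher (20.8%, against 15.7%) and 13 lower (10.8%, against 15.4%), while DESeq2 called 37, with *Pcsk7* and without *Cx3cl1* and *Ptpn14*. The median log2 difference was 0.09 in the lists and 0.00 over all genes. Among 18 other substrates of ADAM17, 10 (55.6%) were called. The genes higher in replicate 3 were *Sdc4*, *Met*, *Sdc1*, *Ngfr*, *Cd40*, *Nectin4*, *Cx3cl1* and *F11r*, with log2 differences between 0.64 and 1.88. The lower ones were *Il6ra* (-1.52) and *Kl* (-1.48), which encode the interleukin-6 receptor and Klotho. *Sdc1*, a cell surface proteoglycan, was at 35.9, 36.2 and 85.4 CPM in control and 36.0, 35.7 and 77.4 CPM in activated libraries 1, 2 and 3, the same in both conditions within the spread. *Tnf* itself had at most 1 count in any library.

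**Figure D3:**
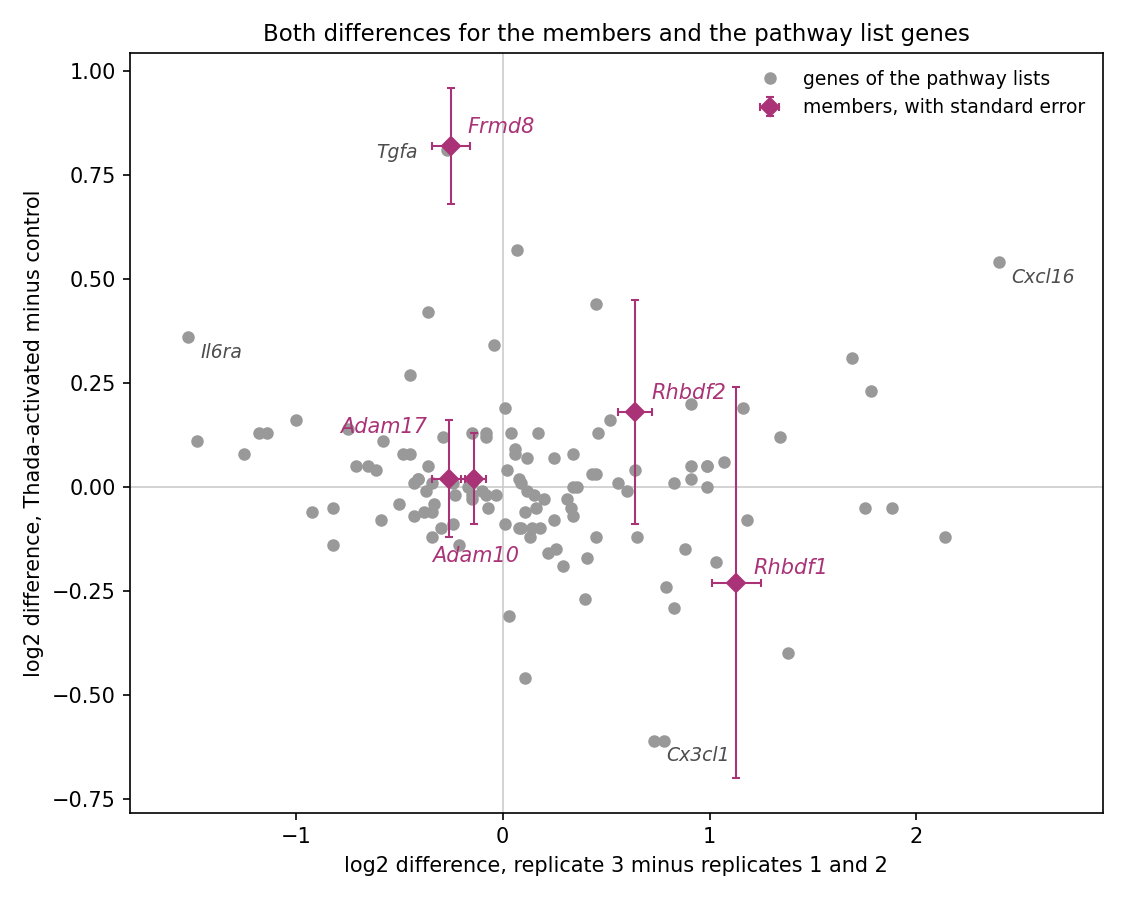
Log2 difference between conditions (vertical axis) against log2 difference between replicate 3 and replicates 1 and 2 (horizontal axis), for the 5 members (diamonds, with standard errors) and 120 tested genes of the pathway lists (grey points). *Frmd8* (0.82) and *Tgfa* (0.81) lie together at the top, and the list genes spread further along the horizontal axis, with a median absolute difference of 0.37, than along the vertical one, where it was 0.08. Over all tested genes these were 0.38 and 0.08.

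Among 16 tested substrates of ADAM10, 5 were called (31.2%, against 31.1% of all genes) and all were higher in replicate 3 (15.7% of all genes), namely *Cxcl16* (2.40), *Dll1* (1.78), *Jag1* (1.75), *Cdh1* (1.69) and *L1cam* (0.91). *Jag1*, a Notch ligand, was at 4.80, 5.30 and 15.9 CPM in control and 4.45, 4.49 and 16.1 CPM in activated cells. Of 5 tested TspanC8 escorts of ADAM10, *Tspan17* was called, with 9.02, 8.21 and 15.8 CPM in control and 8.62, 7.48 and 21.7 CPM in activated cells. *Adam10* itself was not higher in these libraries.

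Of 5 tested genes for the maturation and trafficking of the sheddases, *Pacs2* (-0.71) and *Nrd1* (-0.59) were called lower in replicate 3. They were 40.0% of the list, against 15.4% of all genes called lower and 31.1% called in either direction. PACS2 recycles ADAM17 from endosomes to the surface, and nardilysin, the product of *Nrd1*, enhances its activity. *Pacs2* was at 70.6, 71.2 and 40.6 CPM in control and 70.3, 72.3 and 46.5 CPM in activated cells. *Furin*, which removes the prodomains, was at 109 CPM or more in every library and was not called, with a log2 difference of 0.12. Of 2 tested inhibitors, *Timp2* was higher (0.60). *Timp3*, the main tissue inhibitor of ADAM17, had at most 1 count in any library.

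In the 14-3-3 family, which binds the phosphorylated tail of iRhom2, 1 of 7 genes (*Ywhab*, -0.61) was called, lower in replicate 3. This was 14.3% of the list, against 15.4% of all genes called lower and 31.1% called in either direction. Of 12 other rhomboid-like genes 6 were called (33.3% higher, against 15.7% of all genes, and 16.7% lower, against 15.4%), with *Rhbdl3* (1.34), *Rhbdl1* (0.99), *Rhbdl2* (0.99) and *Rhbdd1* (0.83) higher, and *Rhbdd2* (-1.18) and *Derl3* (-0.82) lower in replicate 3. *Rhbdl3* was at 10.6, 10.1 and 27.1 CPM in control and 11.4, 11.9 and 28.6 CPM in activated cells. None of 5 other ADAM genes was called in either comparison by edgeR or DESeq2. Between conditions 0 of 5 were at an unadjusted p under 0.05 in edgeR's test, against 0.807% of all genes. Between replicates this held for 8893 of all 12516 genes and for 2 of these 5. The most abundant of these was *Adam9*, at a mean of 30.6 FPKM, close to the 30.3 FPKM of *Adam10*, followed by *Adam15* (20.9), *Adam22* (10.5) and *Adam23* (5.65 FPKM).

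Of 9 tested genes of the other sheddases and γ-secretase, 3 were called (33.3%, against 31.1% of all genes), close to the share over all genes. *Aph1b* (0.65) was higher (11.1%, against 15.7%), and *Psen2* (-0.75) and *Ncstn* (-0.65) were lower in replicate 3 (22.2%, against 15.4%). Of 36 tested FERM-domain genes other than *Frmd8*, 7 were called (19.4%, against 31.1% of all genes). *Mylip* (1.07), *Ptpn14* (0.91) and *Jak2* (0.88) were higher, and *Tln1* (-1.25), *Frmd4b* (-1.14), *Frmd4a* (-0.92) and *Farp2* (-0.82) were lower. *Frmd4a* was at 107, 101 and 52.7 CPM in control and 99.3, 97.5 and 54.3 CPM in activated cells.

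Markers of β-cells differed between the replicates too. Of 9 tested markers, *Ins1* (0.82) was higher and *Pdx1* (-1.03), *Mafa* (-0.61), *Ucn3* (-1.24) and *Slc30a8* (-0.96) were lower in replicate 3, 5 genes (55.6%) against 31.1% of all genes. *Ucn3*, singled out after its values were seen, was also 1.42, 1.33 and 1.60 times as high in activated as in control libraries 1, 2 and 3, at 26.6, 26.9 and 10.4 CPM in control and 37.7, 35.9 and 16.6 CPM in activated cells. It was not called in edgeR's test, with a log2 difference of 0.50 and an adjusted p of 1. The adjusted p was 0.0337 (log2 difference 0.52) in the paired edgeR fit and 0.00654 (0.51) with replicate 3 as a term. In the paired fit without replicate 3 it was 4.2e-05 (0.46). These log2 differences were under that of the fold minimum (0.585), so *Ucn3* was not called in these fits either. In the paired fit without replicate 3, *Ins1* (log2 difference 0.20, adjusted p = 0.0110), *Mafa* (0.24, 0.0188) and *Nkx6-1* (0.20, 0.0449) were also under 0.05 and higher in activated cells. *G6pc2* (-0.26, 0.000599) and *Iapp* (-0.18, 0.0268) were under 0.05 and lower. All were under the fold minimum and at an adjusted p of 1 in edgeR's test on all libraries. With the fold minimum the paired fit without replicate 3 called 0.561% of all genes. The share of all genes without that minimum is not given here, so no excess in this list is read from these values. The part of this list in the difference of *Frmd8* was not tested. The summed level of the list, led by *Ins2*, was 108549, 97496 and 131332 CPM in control and 102777, 100789 and 114461 CPM in activated libraries 1, 2 and 3. *Slc2a2*, the glucose transporter gene of mouse β-cells, was at 0.512 CPM or less in every library, so this defining marker was almost absent. The part of these differences in those of *Rhbdf1* and *Rhbdf2* was not tested, and in bulk RNA fewer cells of a type and less RNA per cell cannot be told apart.

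Duct markers were summed at 151, 151 and 73.1 CPM in control and at 184, 185 and 97.3 CPM in activated libraries 1, 2 and 3, nearly all of it *Krt7*, and *Krt7* (-0.99) and *Krt19* (-0.83, not called by DESeq2) were lower in replicate 3. They were the 2 tested markers of this list, against 15.4% of all genes called lower and 31.1% called in either direction. *Krt7* was 1.21, 1.22 and 1.32 times as high in activated as in control libraries 1, 2 and 3, under the fold minimum, with an adjusted p of 1 in edgeR's test, 0.0651 in the paired edgeR fit, 0.0132 with replicate 3 as a term and 0.00119 in the paired fit without replicate 3. *Krt19* was between 0.344 and 0.527 CPM in control and between 1.02 and 2.36 CPM in activated cells, while *Sox9* was at or under the floor. For *Krt19* every activated library was above every control library, as for 2.70% of all tested genes. The log2 difference of *Krt19* was 1.79 (standard error 0.42, adjusted p = 1 in edgeR's test, 0.0548 in the paired edgeR fit, 0.0211 with replicate 3 as a term and 0.000502 in the paired fit without replicate 3), and the part of both keratin genes in the difference of *Frmd8* was not tested. Alpha cell markers, led by *Gcg*, summed to between 18.6 and 26.2 CPM, and delta and PP cell markers, led by *Sst*, to between 96.9 and 176 CPM, lowest in both replicate 3 libraries. In that list *Sst* (-1.14) was lower and *Ppy* (0.70) higher in replicate 3. Leukocyte, endothelial and acinar markers summed to 1.66 CPM or less in every library, with *Adgre1*, *Lyz2*, *Itgam*, *Cdh5*, *Kdr* and *Cela2a* at or under the floor. In these lists *Cd68* was lower in replicate 3 by edgeR (adjusted p = 0.0334) and was not called by DESeq2. The other direction was seen for *Pecam1*, called by DESeq2 as higher in replicate 3 and not tested by edgeR. Its levels were 0.351, 0.349 and 1.26 CPM in control and 0.338, 0.460 and 1.08 CPM in activated libraries 1, 2 and 3. Fibroblast markers, led by *Col1a1*, summed to 3.10, 2.79 and 4.88 CPM in control and 3.21, 3.80 and 6.37 CPM in activated libraries 1, 2 and 3. *Col1a1* (1.28) was higher in replicate 3, and *Col1a2* was at 1.23, 1.45 and 0.803 CPM in control and 1.91, 1.67 and 1.93 CPM in activated cells, without overlap of the conditions, as for 5.40% of all tested genes. The part of these markers in the differences of the members was not tested.

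The other members lie on chromosomes 9, 11 and 12. In GENCODE M21 (GRCm38) *Rhbdf1* spans 32209585 to 32222300 and *Rhbdf2* 116598165 to 116627019, both on the minus strand of chromosome 11. *Adam17* spans 21323509 to 21373632 on the minus strand of chromosome 12, and *Adam10* spans 70678997 to 70780229 on the plus strand of chromosome 9. The longest coding sequence has 856 codons in 18 exons for *Rhbdf1*, 827 codons in 19 exons for *Rhbdf2*, 846 codons in 20 exons for *Adam17*, 749 codons in 16 exons for *Adam10* and 466 codons for *Frmd8*, without the stop codon.

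Around all 5 genes, 24 listed genes start within 100 kb of a member's start and 14 of them were tested, with log2 differences between conditions from -0.06 to 0.61. The conditions overlapped for each of the 14. *Sphk1*, at the upper end and 96.1 kb from *Rhbdf2*, was at 0.234, 0.407 and 2.58 CPM in control and 1.13, 0.403 and 3.41 CPM in activated cells, high in replicate 3 of both. *Ywhaq*, itself a gene of the 14-3-3 family, starts 44.0 kb from *Adam17*, and the others tested near that gene were *Iah1*, *Itgb1bp1* and *Cpsf3*. Near *Rhbdf1* these were *Mpg*, *Snrnp25* and *Nprl3*, near *Rhbdf2* also *Ube2o*, and near *Adam10* *Mindy2*. *Snrnp25*, which starts 16.9 kb from *Rhbdf1* but ends at 32208984, next to the end of that gene at 32209585, was at 11.3, 10.3 and 17.5 CPM in control and 10.1, 10.5 and 19.5 CPM in activated cells, so its replicate 3 libraries were high as well, while *Nprl3* was lower there, with a log2 difference of -0.67 (standard error 0.08). *Mpg*, whose start is closest to that of *Rhbdf1* (4.2 kb), had a log2 difference of -0.11 (standard error 0.12) between the replicates.

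RefSeq promoters (GRCm38.p6) were matched for 3 of the 5 genes, and *Rhbdf1* and *Rhbdf2* were not matched. They are shown because *Frmd8* was higher in activated cells while *Adam17* and *Adam10* had a log2 difference of 0.02. In the 250 bases before the RefSeq start, the share of G and C was 62.8% for *Frmd8*, 70.4% for *Adam17* and 74.0% for *Adam10*, against a median of 52.4% over 32851 promoters. The letters searched on both strands were GGGCGG (GC box), CCAAT (bound by NF-Y), TATAAA (core promoter box), TGACGTCA (cAMP response element), CACGTG (E-box) and CCGGAA (ETS core). They occur in 32.7%, 33.8%, 12.4%, 1.55%, 6.02% and 12.0% of all promoters of that length. *Frmd8* held CCAAT once, on the reverse strand 78 bases before the start. *Adam17* held GGGCGG and CCGGAA once each, and *Adam10* held GGGCGG 3 times, CCAAT 2 times and CACGTG once. None of the 6 motifs is in all 3 promoters, and a match is a description of letters and not of binding. The sequences below run 5′ to 3′ on the strand of the gene with matches in capitals, and that of *Frmd8* stops where the GENCODE gene begins.
*Frmd8*, chr19:5875275-5875458, minus strand, 184 bases: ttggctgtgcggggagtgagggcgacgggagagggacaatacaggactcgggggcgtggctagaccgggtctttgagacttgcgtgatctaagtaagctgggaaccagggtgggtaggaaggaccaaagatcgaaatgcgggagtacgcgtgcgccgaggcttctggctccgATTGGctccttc
*Adam17*, chr12:21373633-21373882, minus strand, 250 bases: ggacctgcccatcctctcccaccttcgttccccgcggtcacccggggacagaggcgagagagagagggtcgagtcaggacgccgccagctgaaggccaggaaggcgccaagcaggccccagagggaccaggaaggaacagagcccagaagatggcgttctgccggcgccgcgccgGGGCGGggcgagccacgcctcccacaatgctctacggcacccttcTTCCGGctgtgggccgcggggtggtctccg
*Adam10*, chr9:70678732-70678981, plus strand, 250 bases: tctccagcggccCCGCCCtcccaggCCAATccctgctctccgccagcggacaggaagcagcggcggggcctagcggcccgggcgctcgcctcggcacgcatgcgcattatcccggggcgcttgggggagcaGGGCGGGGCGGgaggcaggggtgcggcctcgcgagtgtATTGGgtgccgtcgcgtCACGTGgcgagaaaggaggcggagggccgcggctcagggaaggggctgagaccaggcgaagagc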

How the data were processed

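The authors deposited an estimated count per gene and library, without normalization, on GRCm38. The submitters' processing notes name Bowtie2, RSEM and DESeq2. The authors' table also holds FPKM values, used as deposited, and columns of their own DESeq2 comparison, which were not used. Between 91.1% and 91.9% of values per library equalled an integer exactly, with no tolerance, and counts were rounded. Genes were filtered by filterByExpr, scaled by TMM and tested with edgeR 4.0.16 in R 4.3.3 (quasi-likelihood, robust), with the condition as the only term, or with condition and replicate 3 as terms. Calls needed a Benjamini-Hochberg adjusted p under 0.05 and a fold over 1.5. The alternatives used DESeq2 1.42.0, limma 3.58.1 on log2(FPKM + 1) and log2(FPKM + 0.1), other filters and library sizes, and each library left out. The fits were tested on simulated data. Pattern likeness used log2(CPM + 0.1). Strands and positions came from GENCODE M21.

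Deviations from the condition mean correlated across genes at 0.667, 0.671 and 0.869 between same-numbered libraries 1, 2 and 3. Crossing 1 and 2 gave 0.705 and 0.726, and crossing either with 3 from -0.784 to -0.766. The numbers thus set replicate 3 apart and do not tell 1 from 2. The label numbers were treated as pairing the libraries in the fits called paired. For libraries 1 and 2 that pairing rests on the labels alone, also in the paired fit without replicate 3. No library was a copy of another in a chi-square test of each pair of libraries, within and across conditions. The lowest chi-square per degree of freedom was 1.84, between activated libraries 1 and 2, and it was 4.43 between control libraries 1 and 2. This test cannot tell whether 2 libraries came from the same culture or RNA. The paired fit without replicate 3 rests on these 2 pairs of libraries.

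Genes named were the 5 members, *Thada*, pathway list genes called in either comparison or in the paired fit and otherwise up to 4 of the highest FPKM per list, the 5 genes closest to *Frmd8*, and genes starting within 100 kb of a member. Marker genes, genes at low levels and those named for conditions that did not overlap were chosen after their values were seen. Members and lists were chosen with earlier results of these data known.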

Additional observations from a re-analysis of the deposited data

How the results depend on the processing

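Between conditions, edgeR's test called 0 genes, and still 0 with each library left out in turn (0 to 0). The count was 5 by DESeq2, 19 with the replicate block, 70 with the replicate block and without both replicate 3 libraries, and 42 with replicate 3 as a term. DESeq2 with the replicate block, an alternative chosen after the data were seen, called 18. Of the pathway list genes 0 were called, and 1 (*Tgfa*) both in the paired fit without replicate 3 and with replicate 3 as a term. The cause was not tested. Among named genes outside the lists, *Thada* (adjusted p = 0.00041), *Arhgap36* (0.0103) and *Srl* (0.00401) were called by edgeR with the block and not without it (adjusted p = 1), and the block changed no call of a list gene. Replicate 3 differed from the others in 3893 genes, 3648 to 4082 with a library left out, and 38 list genes, 38 to 42. Without a fold minimum these were 8592 and 80, since fewer conditions have to be met. The log2 difference of *Frmd8* between conditions was between 0.70 and 0.91 over the filters, normalizations, tools and single libraries left out, and 0.81 with the replicate block. Those of *Rhbdf1*, *Rhbdf2*, *Adam17* and *Adam10* changed sign when single libraries were left out, which leaves the replicate numbers unbalanced between conditions. The replicate difference of *Rhbdf2* (0.64) was 0.53 without control replicate 3 and 0.56 by limma on log2(FPKM + 1), under the log2 of the fold minimum (0.585). For *Rhbdf1*, limma on log2(FPKM + 1) put the replicate difference at 0.82 in place of 1.13.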
